A study of Mus musculus with 6 samples.

Results

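The histone demethylases Kdm2b, Kdm3a, Kdm4a, Kdm4b, Kdm4c, Kdm5b, Kdm5c and Kdm6b were followed in mProx24 cells, a mouse cell line labelled as proximal tubular cells of strain C57B6. They were chosen by gene symbol, as the probes that are not controls and carry 1 of these 8 names, out of 34789 gene names on the arrays. The 8 names were picked with earlier results of these data known. Their counts and medians beside those of all genes are therefore no test of the group. All 8 were found under their current symbols, on 15 probes with 1 spot each. RNA was measured on 6 one-colour arrays, 1 array for each condition, so no value below has a replicate error.

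The conditions were Triple stimuli + Rapamycin, Triple stimuli, Hypoxia, High FFAs, High glucose and Control. Per the labels, hypoxia was 1% oxygen for 12 hours. High FFAs (free fatty acids) was 150 µM palmitate on 0.15% bovine serum albumin for 9 hours, following hypoxia where both were used. Rapamycin, which inhibits the mTORC1 kinase complex, was given at 0.4 µg/ml for 12 hours ahead of palmitate. Triple stimuli joined high glucose, palmitate and hypoxia. Control, high glucose and high FFAs were kept at 20% oxygen, and the arrays without palmitate are labelled PBS. All cells grew in the same serum-containing medium. No source used here gives the glucose concentrations or the vehicle of rapamycin.

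For one pair of arrays the deposited sources contradict each other. Array A carries the label High glucose on its scanner file while its values stand under High FFAs in the value table, and for array B it is the reverse. Both are used under these letters, and no statement is made on which of the stimuli either received. The scanner software called between 40.3% and 43.8% of the 59305 gene spots of an array well above background, and 0 were saturated. The arrays shared 1 slide, whose first row of arrays held the 20% oxygen samples and whose second row held the 1% oxygen samples, so that oxygen and place on the slide cannot be told apart. Of 15 markers of the proximal tubule, 7 were well above background on all 6 arrays, among them Cdh16, Lrp2, Aqp1, Pax8 and Cubn, and 7 on none, among them the phosphate and glucose transporter genes Slc34a1, Slc5a1 and Slc5a2 and the factor gene Hnf4a. Among markers of other cell types, Aqp2 (collecting duct), Kdr (endothelium), Cd68 and Cd3e (leukocytes) were above background on all 6 arrays. The collecting duct gene Scnn1a was above it on 3, and the fibroblast genes Col1a2 on 2 and Col1a1 on 1. Above background on no array were 4 of 6 markers of collecting duct and loop, 3 of 5 of fibroblasts and 3 of 4 of endothelium. The same held for 2 of 4 leukocyte markers and all 3 podocyte markers.

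Histone demethylases of the JmjC class are dioxygenases. They use molecular oxygen, iron and 2-oxoglutarate to hydroxylate a methyl group on a histone lysine, which is then lost as formaldehyde, so their activity depends on oxygen directly. Several of their genes are also known, from human cells, to be transcribed more when oxygen falls, KDM3A and KDM4B being established targets of the hypoxia-inducible factor HIF. The arrays measured RNA and neither enzyme activity nor histone marks.

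Each probe is 60 bases long and was designed against a stated transcript. The first 30 bases are shown for the probes of Kdm3a and Kdm4b, the genes called in hypoxia, and for the dimmer of 2 measured Kdm2b probes, because the probes of that gene gave different answers. Positions are on mouse build mm9 as the files give them. Exons and untranslated regions were not annotated, as no annotation of that build was used here.
Kdm3a (chr6:71539112-71539171, minus strand): ggactggcattatatagcagaaataactac
Kdm4b (chr17:56542216-56542275, plus strand): atatttttgcctcattctctggcctccagt
Kdm2b, dimmer probe (chr5:123321714-123321773, minus strand): tgtccaatttgggcaagtggaagagaaact
Both measured Kdm2b probes were designed on transcript NM_001003953, the dimmer one starting at base 4073.

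A level below is the log2 signal of a probe minus the log2 75th percentile of the gene spots of its array, so 0 is that percentile. Where a gene has several probes, the one brightest on average stands for it. A difference is the level on the first named array minus that on the second, and it was called at 1 or more in size, which is 2-fold. Levels of different probes are not set against each other. The one error at hand is technical. Over 216 to 222 probes spotted 5 or more times on each array, the SD of the difference between spots of 1 probe was 0.10 to 0.12, and the scanner software put the error of the brightest probe of each of the 8 genes at 10.0% to 10.1% of its signal. Neither covers the spread between cultures. In a culture measured in bulk, a change in the share of cells that make an RNA and a change in the RNA of each cell cannot be told apart.

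Kdm3a, which removes mono- and dimethyl marks from the histone H3 lysine H3K9, was higher on every array at 1% oxygen. Its level was 3.75 in triple stimuli with rapamycin, 3.56 in triple stimuli, 3.72 in hypoxia, 2.60 on array A, 2.30 on array B and 2.42 in control. The 3 arrays at 1% oxygen lay together, and the lowest of them stood 0.96 above the highest at 20% oxygen. Against control this was 2.46-fold in hypoxia, 2.19-fold in triple stimuli and 2.51-fold in triple stimuli with rapamycin (log2 differences 1.30, 1.13 and 1.33, which share the control array). The 20% oxygen arrays differed from control by 0.18 (array A) and -0.13 (array B), beside spot errors of 0.10 and 0.11.

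The Kdm4 genes encode demethylases of trimethylated H3K9 and, in varying degree, of H3K36. Kdm4b had the widest range of the 8 genes, 1.64. Its level was 3.22 in triple stimuli with rapamycin, 3.43 in triple stimuli, 4.01 in hypoxia, 2.36 on array A, 2.46 on array B and 2.38 in control. The 20% oxygen arrays were within 0.08 of control, and hypoxia alone gave the highest level. The differences from control were 0.83 in triple stimuli with rapamycin, 1.04 in triple stimuli and 1.62 in hypoxia (1.78-fold, 2.06-fold and 3.08-fold). Triple stimuli stood 0.58 below hypoxia, a gap larger than the spot error. The call in triple stimuli was narrow, since scaling by the median of each array in place of the 75th percentile left Kdm4b at 0.93 there, while the same scaling moved the median of all genes in that comparison to -0.12.

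Kdm4a levels at 1% and 20% oxygen overlapped. They were 3.80 in triple stimuli with rapamycin, 3.67 in triple stimuli, 3.26 in hypoxia, 3.51 on array A, 3.30 on array B and 2.96 in control. Control was the lowest of the 6 arrays, and hypoxia stood next above it, below arrays A and B. No difference from control reached 1, the largest being 0.85 in triple stimuli with rapamycin and 0.71 in triple stimuli. The dimmer Kdm4a probe was above background on 4 arrays, at -2.55, -2.59, -3.25, -3.08, -3.99 and -3.25 in the same order, and its differences from control were 0.70 in triple stimuli with rapamycin and 0.66 in triple stimuli.

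Kdm4c varied less, with a range of 0.47. The levels of Kdm4c were 0.97 in triple stimuli with rapamycin, 1.04 in triple stimuli, 0.92 in hypoxia, 0.93 on array A, 0.62 on array B and 0.57 in control. Array A lay among the 1% oxygen arrays, and array B lay near control. The Kdm4c differences from control were 0.40, 0.47, 0.35, 0.36 and 0.05 in that order of arrays.

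Kdm6b, which removes di- and trimethyl marks from H3K27 and is known as an early response gene of inflammatory signalling in macrophages, was highest when the stimuli were combined. Its level was 2.57 in triple stimuli with rapamycin, 2.81 in triple stimuli, 1.998 in hypoxia, 2.07 on array A, 1.40 on array B and 1.30 in control. Control and array B were the lowest, hypoxia and array A lay between, and the triple stimuli arrays were the highest. Hypoxia was 0.70 above control (1.62-fold) and array A 0.77 (1.70-fold), neither of which met the 2-fold rule, while triple stimuli reached 1.51 (2.85-fold) and triple stimuli with rapamycin 1.27 (2.41-fold). Triple stimuli against hypoxia gave 0.81, beside 0.77 for array A against control, which share no array. The marker Cd68 of leukocytes was also higher on array A (1.92) and in triple stimuli (1.39) than in control. The leukocyte markers Ptprc and Adgre1 were not above background on any array, Cd3e differed from control by 0.03 and 0.04 there, and the part of Cd68 in the Kdm6b values was not tested. Some proximal tubule markers were lower on the same arrays: Aqp1 differed from control by -1.19 on array A and -0.93 in triple stimuli, Lrp2 by -0.68 and -1.10, and Cdh16 by -0.53 and -0.40. Pax8 (0.20 and 0.39), Ggt1 (0.69 and 0.76) and Slc4a4 (0.28 and 1.77) were higher there, and Cubn was at -0.22 and 0.03.

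Kdm5b and Kdm5c encode demethylases of di- and trimethylated H3K4. Kdm5b had levels of 3.65 in triple stimuli with rapamycin, 3.74 in triple stimuli, 3.46 in hypoxia, 2.79 on array A, 2.91 on array B and 2.93 in control. The 1% oxygen arrays were all above the 20% oxygen arrays, with a gap of 0.53, but the differences from control, 0.72, 0.82 and 0.53, stayed under 2-fold in triple stimuli with rapamycin, triple stimuli and hypoxia. Other Kdm5b probes, which read the same gene and are not independent, gave the same direction against control at 1% oxygen. One dimmer probe stood 0.61, 0.70 and 0.85 above control in triple stimuli with rapamycin, triple stimuli and hypoxia, and another stood 0.42, 0.37 and 0.65 above it. Both had every 1% oxygen array above every 20% oxygen array. The last Kdm5b probe, designed on the mRNA AK163481, was above background in triple stimuli with rapamycin alone, at a level of -2.94.

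Kdm5c, an X-linked gene, had the smallest range of the 8, 0.29. It stood at 3.29 in triple stimuli with rapamycin, 3.58 in triple stimuli, 3.56 in hypoxia, 3.36 on array A, 3.37 on array B and 3.35 in control. All differences from control lay between -0.06 and 0.23. Its dimmer probe ranged over 0.44, with -1.23 in triple stimuli with rapamycin, -0.80 in triple stimuli, -0.89 in hypoxia, -1.10 on array A, -0.96 on array B and -1.22 in control.

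Kdm2b encodes a demethylase of H3K36 that also binds unmethylated CpG sites and brings the Polycomb complex PRC1.1 to them. Its brighter probe had levels of 3.91 in triple stimuli with rapamycin, 3.96 in triple stimuli, 4.27 in hypoxia, 4.05 on array A, 4.41 on array B and 4.27 in control. By this probe hypoxia differed from control by 0.00. The lowest values were those of triple stimuli with rapamycin and triple stimuli, 0.36 and 0.31 below control. The dimmer probe had -0.59, -0.86, 1.40, -0.69, -0.23 and -0.29 in the same order. It was therefore high on the hypoxia array alone, 1.70 above control and 2.26 above triple stimuli. Among 4124 gene names with at least 2 measured probes, the median range between probes in the hypoxia comparison was 0.17, and 2.18% had a range of 1 or more. A further Kdm2b probe, on an Ensembl transcript, was above background on no array.

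The spot of the dimmer Kdm2b probe lay in row 58 of 384. In the first 64 rows, 9.16% of genes were at least 2-fold higher in hypoxia than in control, against 3.38% in the later rows. Within 3 rows and 3 columns of that spot, 5 of 19 measured spots were at least 2-fold higher in hypoxia, against 0 to 2 around the other 14 spots of the 8 genes. By bands of 32 rows, the share was 7.0% in the band of that spot, 5.73% in the band of Kdm4b (row 81), 5.65% in that of Kdm5b (row 168), 3.59% in that of Kdm6b (row 206) and 2.26% in that of Kdm3a (row 274). By band, the shares for Kdm4b and Kdm5b were thus closer to that of the dimmer Kdm2b spot than those for Kdm6b and Kdm3a. Within 3 rows and 3 columns the order differed. There, 2 of 16 spots around Kdm3a, 1 of 12 around Kdm4b, 0 of 23 around Kdm5b and 0 of 20 around Kdm6b were at least 2-fold higher. The median difference of these neighbours was 0.19 around Kdm3a, -0.17 around Kdm4b, -0.10 around Kdm5b and 0.01 around Kdm6b. Around the dimmer Kdm2b spot it was 0.17. The part of spot position in these values was not tested.

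**Figure D1:**
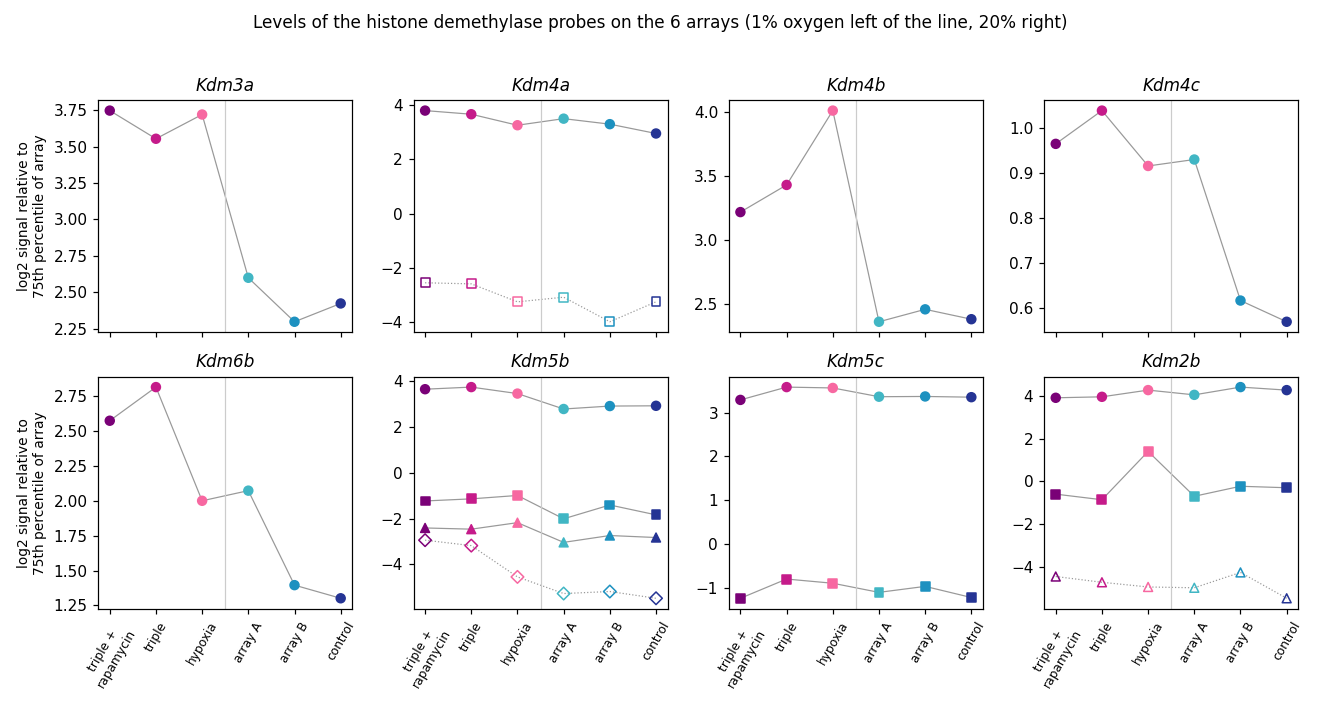
Levels of all 15 probes of the 8 demethylase genes (log2 signal relative to the 75th percentile of the array, vertical scale set for each gene) on the 6 arrays, with 1% oxygen left of the grey line. Filled points are probes above background on all 6 arrays, open points the others, each marker shape is 1 probe, and lines only join the points of a probe. Kdm3a, Kdm4b and Kdm5b are higher on all 3 arrays at 1% oxygen, and the middle Kdm2b probe is high in hypoxia alone.

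**Figure D2:**
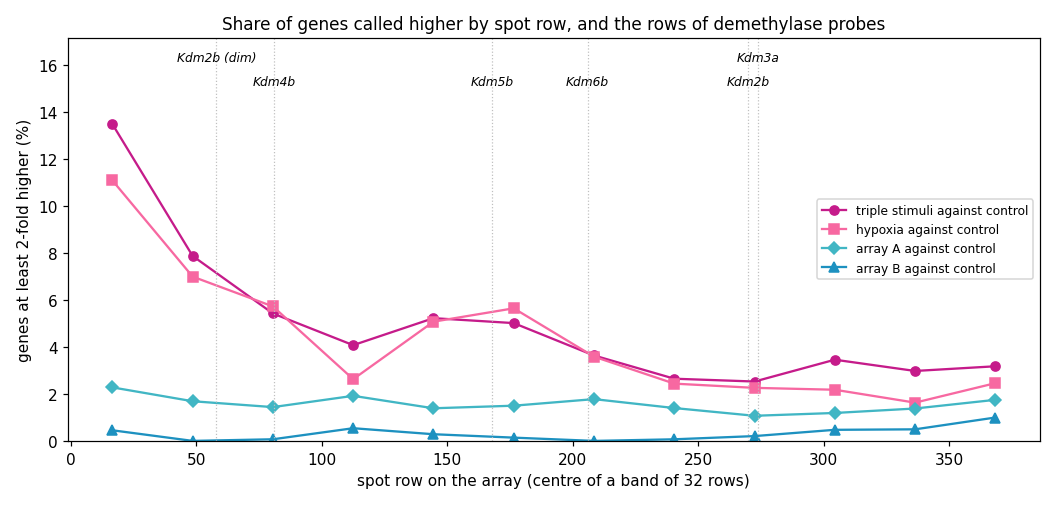
Percentage of genes at least 2-fold higher than control in bands of 32 spot rows, for triple stimuli, hypoxia, array A and array B. Dotted lines mark the rows of 6 demethylase probes. Both 1% oxygen conditions had more such genes in the first bands, where the dimmer Kdm2b probe (row 58) lay.

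Hypoxia against control is the comparison without glucose or palmitate. Kdm4b and Kdm3a were at least 2-fold higher, so 2 of 8 were called, and 0 were called lower. Over 17806 gene names compared, 4.41% were called higher and 0.461% lower. The differences ran from 0.00 (Kdm2b) to 1.62 (Kdm4b), with a median of 0.44, while 43.9% of all genes lay above 0 and their median was -0.01. Kdm6b (0.70) and Kdm5b (0.53) followed, and Kdm4c (0.35), Kdm4a (0.30) and Kdm5c (0.21) were closer to control. Of 17 HIF targets on the arrays, a list that did not include the demethylases, 15 were above background on all 6 arrays, and 13 of these were called higher in hypoxia, with a median of 2.09. The other two, Adm and Egln3, were above background on 1 and 3 arrays, at low oxygen only. The HIF subunit genes Hif1a, Epas1, Arnt and Arnt2 themselves differed by 0.01 to 0.20.

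Triple stimuli against control asked what the stimuli did together. Kdm6b, Kdm3a and Kdm4b were at least 2-fold higher, 3 of 8, and 0 were lower. The share over 17803 gene names was 5.09% higher and 1.74% lower. The 8 genes had a median of 0.76, against -0.01 over all genes, and 7 were above 0, with Kdm2b the exception at -0.31. Hypoxia and triple stimuli share the control array, so their values are not independent of each other. Where hypoxia was led by Kdm4b, triple stimuli were led by Kdm6b.

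The single stimuli at 20% oxygen gave no call among the 8 genes. On array A, 0 were called, beside 1.57% of 17823 gene names higher and 0.903% lower. Kdm6b (0.77) and Kdm4a (0.55) were the furthest above control there, and Kdm2b (-0.22) and Kdm5b (-0.14) lay below it, with a median of 0.09. Of 15 measured HIF targets, 3 were called higher on array A, Ndrg1 (1.35), Ak4 (1.29) and Vegfa (1.11), although this array was kept at 20% oxygen. The median of the 15 was 0.22, with 12 above 0 and 3 below it, P4ha1 (-0.51), Egln1 (-0.42) and Ankrd37 (-0.39). On array B, 0 were called, beside 0.308% higher and 0.28% lower of 17511. Array B differences ran from -0.13 (Kdm3a) to 0.34 (Kdm4a), and array B had no HIF target called. With the mean over both of its probes Kdm4a was below control on array B, at -0.20. That mean rests on a dimmer probe that was not above background on array B (level -3.99). With its dim side raised, that probe differed from control by -0.09.

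Within 1% oxygen, triple stimuli were compared with hypoxia to see what high glucose and palmitate added. Again 0 of 8 were called, beside 3.51% higher and 3.03% lower of 17079 gene names. Kdm6b was furthest up (0.81) and Kdm4b furthest down (-0.58), with Kdm4a at 0.41, Kdm2b at -0.31 and Kdm5b at 0.28. The dimmer Kdm5b probes above background on all 6 arrays went the other way, at -0.15 and -0.28. Kdm3a (-0.17), Kdm4c (0.12) and Kdm5c (0.02) were near the spot error. Averaging all probes of a gene brought Kdm2b to -1.29 in this comparison, which follows from the dimmer Kdm2b probe.

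The differences of array A, array B and hypoxia from control were added up and placed beside that of triple stimuli, with the control array entering the sum 3 times. For Kdm6b the sum was 1.56 and triple stimuli gave 1.51, and for Kdm5c the values were 0.24 and 0.23. Kdm3a was 0.22 below its sum of 1.35, Kdm4c 0.29 below 0.76 and Kdm2b 0.23 below -0.08. Kdm4b was 0.64 below its sum of 1.68, and Kdm4a was 0.49 below its sum of 1.20. Kdm5b alone was above, by 0.43, as the single differences summed to 0.38. That holds for its brightest probe only. One dimmer Kdm5b probe gave -0.17 (array A), 0.43 (array B) and 0.85 (hypoxia), beside 0.70 in triple stimuli. Another gave -0.21, 0.09 and 0.65, beside 0.37, so both were below the sums of their single differences. All gaps from the sums carry the errors of 5 arrays, and no replicate bears on them.

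In triple stimuli with rapamycin against triple stimuli, no difference of the 8 genes exceeded 0.29 in size and 0 were called, beside 1.94% higher and 2.14% lower of 17260 gene names. Kdm3a was at 0.19 and Kdm4a at 0.13, and the other 6 were below 0, down to -0.24 for Kdm6b and -0.29 for Kdm5c, with a median of -0.08 against -0.03 over all genes. Of 16 measured HIF targets 15 were below 0 in the same comparison, with a median of -0.45, and the oxidase gene Ero1a was called lower (-1.11). Against control, triple stimuli with rapamycin had Kdm3a (1.33) and Kdm6b (1.27) at least 2-fold higher, 2 of 8, with 0 lower, beside 4.58% higher and 1.8% lower of 17982. Kdm4a (0.85), Kdm4b (0.83) and Kdm5b (0.72) lay below the 2-fold rule there.

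**Figure D3:**
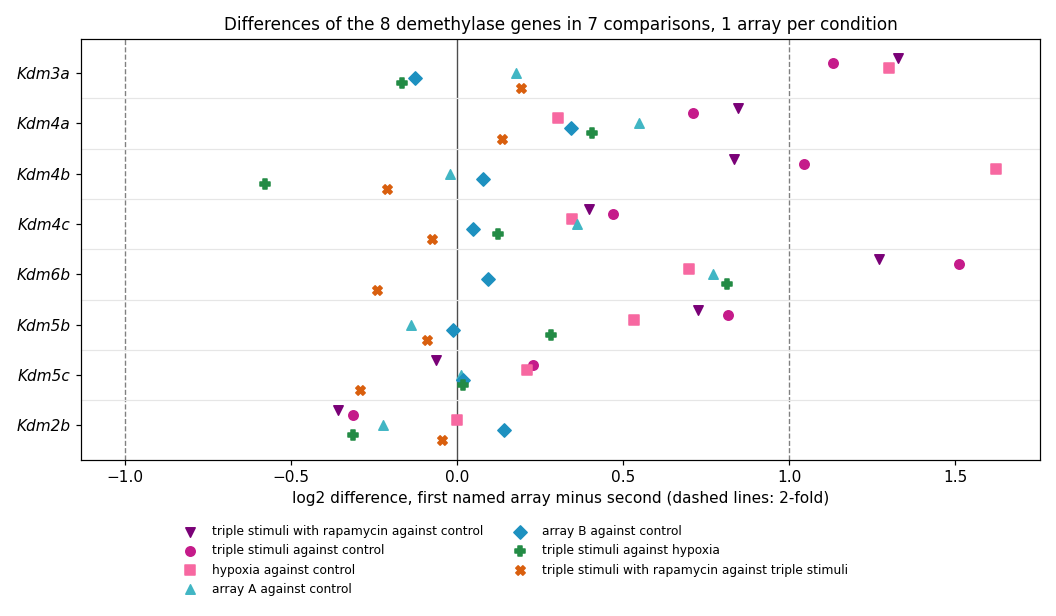
Log2 differences of the 8 demethylase genes in 7 comparisons, 1 marker for each, with dashed lines at 2-fold. Kdm4b lies furthest right in hypoxia (1.62) and Kdm6b in triple stimuli (1.51), and the differences of triple stimuli with rapamycin from triple stimuli lie between -0.29 and 0.19.

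Taking the arrays by oxygen, Kdm3a, Kdm4b and Kdm5b had all 3 arrays at 1% oxygen above all 3 at 20%, and 0 genes of the 8 had them below. Of 19148 gene names above background on at least 1 array, 11.2% lay above in this sense and 14.3% below. The arrays of a side differed in their other stimuli and are not replicates. Mean levels at 1% minus 20% oxygen were 1.24 for Kdm3a, 1.15 for Kdm4b, 0.87 for Kdm6b and 0.74 for Kdm5b. Kdm6b overlapped by 0.07, as array A was above hypoxia, Kdm5c by 0.08 and Kdm4c by 0.01. With quantile normalization these 3 no longer overlapped, and the count became 6, beside 25.5% of all genes in either direction. Kdm4a and Kdm2b overlapped by 0.24 and 0.50.

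The genes most alike to each of the 3 with a range of 1 or more were found by the root mean square difference of centred levels over the 6 arrays, among 15087 gene names above background on all of them. Closest to Kdm3a were Zc3h6 (0.12) and Prkab2 (0.16), a subunit gene of the kinase AMPK, with 1600016N20Rik (0.17), and the other two were probes named by a genomic region. Closest to Kdm6b were Rassf1 (0.06), a Ras association domain gene, and Rhbdd1, Usp53, Rsbn1 and Gtpbp2 (0.12 each). For Kdm4b all 5 were probes with no gene symbol (0.08 to 0.09). Rassf1 had levels of 4.89 in triple stimuli with rapamycin, 5.07 in triple stimuli, 4.23 in hypoxia, 4.32 on array A, 3.61 on array B and 3.41 in control, in the same order of arrays as Kdm6b. Among the 8 genes themselves the closest pairs were Kdm4c with Kdm5c and Kdm4a with Kdm4c (0.17 each), with ranges of 0.47 for Kdm4c, 0.29 for Kdm5c and 0.85 for Kdm4a, and Kdm3a with Kdm4b stood at 0.27.

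The other JmjC demethylase genes are given beside the 8 for their values. Because the 8 were chosen with these data known, a contrast between them and their relatives is no result. Of 14 other JmjC demethylase genes on the arrays, 10 were above background on all 6 and Kdm4d, Kdm5d and Uty on none. In hypoxia 0 of 10 measured were called, beside 4.41% higher and 0.461% lower over all genes, with a median of 0.01 and Riox1, a ribosomal oxygenase gene, furthest from 0 at -0.49. In triple stimuli 0 of 11 were called, beside 5.09% and 1.74%, with a median of 0.14. Counts of 0 among so few genes are near these shares. Kdm7a, a demethylase of H3K9 and H3K27, was not above background in control and at least 1.90-fold higher in triple stimuli and at least 2.30-fold higher in triple stimuli with rapamycin. Riox1 was called higher in triple stimuli against hypoxia (1.01). In hypoxia the nearest relatives of Kdm3a (1.30), Kdm3b and Jmjd1c, differed from control by 0.29 and 0.11, and that of Kdm6b (0.70), Kdm6a, by 0.02.

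Some other oxygen-using enzymes were called, beside 4.41% of all genes called higher in hypoxia and 5.09% in triple stimuli. Among 7 measured JmjC proteins with another or no known demethylase role, Jmjd6, a lysyl hydroxylase gene, was called higher in hypoxia (1.15) and triple stimuli (1.04). Of the 3 TET genes, which encode dioxygenases of methylated cytosine in DNA, Tet2 was called higher in both (1.32 and 1.04), Tet3 had 0.85 and 0.88, and Tet1 -0.01 and 0.18. In triple stimuli with rapamycin against control none of these was called, with Jmjd6 at 0.57, Tet2 at 0.85, Tet3 at 0.20 and Tet1 at 0.04. The flavin-dependent demethylase genes Kdm1a and Kdm1b, which also use oxygen but not iron, differed by 0.14 and -0.01 in hypoxia.

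The writers of the corresponding marks had no gene called in any of the 7 comparisons. Over all genes, 4.41% were called higher and 0.461% lower in hypoxia. The shares were 5.09% and 1.74% in triple stimuli, and 0.308% and 0.28% on array B. For 1 list of 6 to 10 genes in 1 comparison, a count of 0 is near these shares. The 7 genes of H3K9 methyltransferases had medians of -0.11 in hypoxia and -0.05 in triple stimuli, with Setdb1 furthest at -0.23 in both. For 10 genes of H3K4 methyltransferases and their subunits the medians were -0.10 and -0.05 (Setd1b -0.38 and -0.62), for 9 of the H3K27 methyltransferase complex PRC2 0.05 and -0.08 (Phf19 -0.71 and -0.42), and for 6 of H3K36 methyltransferases -0.13 and -0.16 (Nsd2 -0.36 and -0.51). The 8 partners of Kdm2b in PRC1.1 had medians of -0.02 and 0.01, with Pcgf1 at 0.40 in hypoxia and Skp1 at -0.47 in triple stimuli. Also listed were 15 genes that make or use 2-oxoglutarate, the co-substrate of these demethylases, and succinate and fumarate, which inhibit them. Of these 15 genes 0 were called, which for so few is near the shares above. In hypoxia 12 were below 0 (median -0.09), and in triple stimuli 13 (median -0.25, Idh1 -0.66). Over all genes, 43.9% lay above 0 in hypoxia and 44.7% in triple stimuli.

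**Figure D4:**
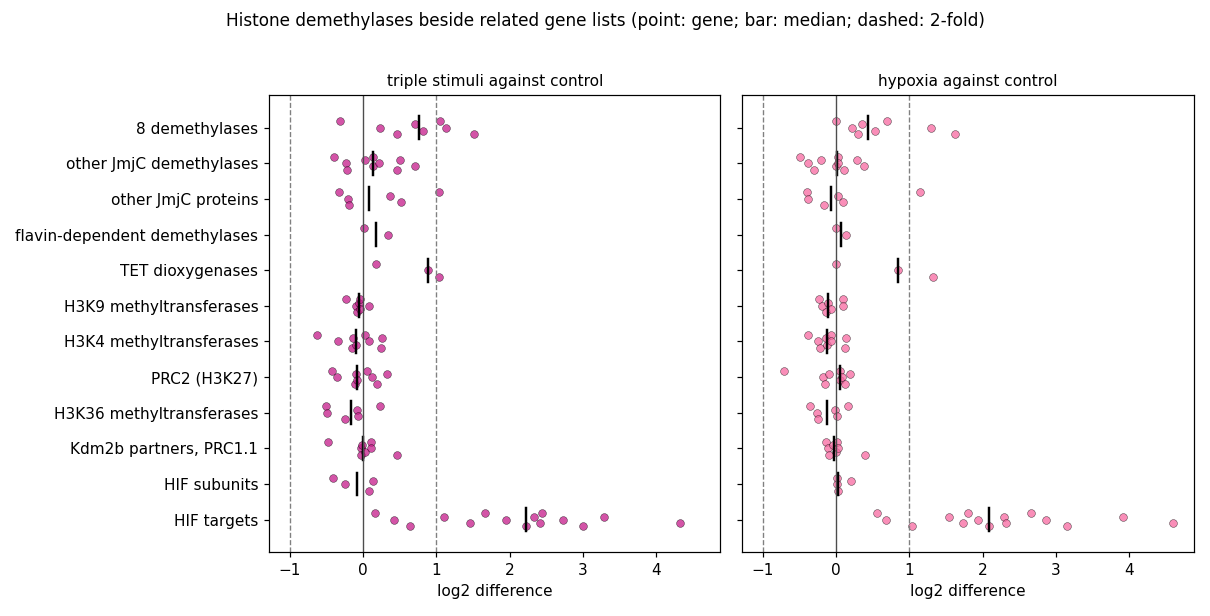
Log2 differences from control in triple stimuli (left) and hypoxia (right) of the 8 demethylase genes and of related gene lists; each point is 1 gene above background on all 6 arrays, the bar is the median and dashed lines are at 2-fold. The 8 genes have medians of 0.76 and 0.44, HIF targets of 2.22 and 2.09, and the methyltransferase lists lie near 0. The 8 genes and the lists were chosen with earlier results of these data known, so a contrast between them is no result.

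Promoter sequence was available for 6 of the 8 genes in the RefSeq table (build GRCm38.p6), with 12 transcript starts between them. Kdm4b and Kdm6b are named only. The 250 bases before each start were searched on both strands for ACGTG and for GCGTG, the core letters of HIF response elements. A CACGTG run holds ACGTG on both strands and was counted for each. Over 32851 starts, 16.6% held ACGTG, 28.2% held GCGTG and 38.6% held either. Of the 12 starts, 7 held either and 2 held ACGTG. The 4 Kdm2b starts are among the 7, and 2 of their stretches overlap by 233 of 250 bases and hold the same matches, so that sequence is counted in both. The stretches of Kdm3a and Kdm5b are shown because both genes were higher on all arrays at 1% oxygen, and that of Kdm4c because it held the most matches while its level varied by 0.47. Capitals mark the matched letters.
Kdm3a (chr6:71632918-71633167, minus strand): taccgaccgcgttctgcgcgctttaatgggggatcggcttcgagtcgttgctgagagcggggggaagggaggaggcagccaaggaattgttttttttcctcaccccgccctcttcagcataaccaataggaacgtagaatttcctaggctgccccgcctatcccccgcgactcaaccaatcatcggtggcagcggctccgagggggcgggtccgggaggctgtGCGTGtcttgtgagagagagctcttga
Kdm5b (chr1:134559928-134560177, plus strand): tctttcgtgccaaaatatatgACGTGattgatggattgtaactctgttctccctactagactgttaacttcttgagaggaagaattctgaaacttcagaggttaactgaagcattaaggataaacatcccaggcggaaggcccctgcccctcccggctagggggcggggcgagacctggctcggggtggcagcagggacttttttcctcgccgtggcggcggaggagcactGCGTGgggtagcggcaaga
Kdm4c (chr4:74251629-74251878, plus strand): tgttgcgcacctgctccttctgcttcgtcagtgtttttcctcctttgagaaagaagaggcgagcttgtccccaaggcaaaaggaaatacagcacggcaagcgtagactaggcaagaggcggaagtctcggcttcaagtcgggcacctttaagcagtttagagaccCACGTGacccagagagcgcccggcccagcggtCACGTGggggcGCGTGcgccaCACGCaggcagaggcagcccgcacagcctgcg
The Kdm3a stretch held GCGTG 27 bases before the start, and the other two Kdm3a starts held neither. The Kdm5b stretch held ACGTG 229 bases and GCGTG 19 bases before the start. The second Kdm4c start had 4 matches of ACGTG, in a pair of CACGTG runs, and 2 of GCGTG, and its other start had none. All 4 Kdm2b starts held GCGTG, while the Kdm4a and Kdm5c stretches held neither. A match describes these letters and shows no binding.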

How the data were processed

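Per the file headers, the authors scanned the arrays in 1 colour and extracted them with version 10.7.3.1 of Agilent Feature Extraction. The deposited scanner files hold a linear processed intensity for each spot, not scaled between arrays, per the file headers. In the deposited value table each number is a ratio, the same signal divided by a 75th percentile of the array, as read from its values. Its column medians ran from 0.0505 (control) to 0.0562 (hypoxia). The high glucose and high FFAs columns matched each other's scanner files.

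From each log2 intensity the log2 75th percentile over all gene spots of its array was subtracted. Spots with an outlier mark, 683 in all, were left out, which removed 13 of 55681 probes and none of the demethylase probes. A gene entered a comparison when above background on at least 1 of its arrays, and the dim side was raised to the lowest signal well above background. No test was run, since each condition had 1 array and the arrays of an oxygen level differed in their other stimuli, and the number of arrays limits precision. Named were all members, list genes at least 2-fold different, otherwise the furthest from 0, and the 5 nearest in pattern to each member with a range of 1 or more. Genes named besides these were chosen after their values were seen. The members and lists were chosen with earlier results of these data known. Calculations used Python 3.11.15, numpy 2.4.6, pandas 2.3.3 and limma 3.58.1, and 9 alternatives were tried. The steps were tested on simulated data. Some probe sequences and the value of 1 listed gene are not reported here.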

Additional observations from a re-analysis of the deposited data

How the results depend on the processing

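No paired analysis was possible because each condition had 1 array. Of 71 recalculated counts over the 8 genes, 65 stayed within 1.5 times the reported count. With 1.5-fold in place of 2-fold, the count was 1 on array A (Kdm6b), 3 in hypoxia, 5 in triple stimuli, 1 in triple stimuli against hypoxia (Kdm6b) and 5 in triple stimuli with rapamycin against control. In that order, 10.5%, 11.1%, 18.7%, 16.4% and 19.3% of all genes differed by 1.5-fold in either direction. With the mean over all probes of a gene the count was 1 in triple stimuli against hypoxia (Kdm2b), beside 10.2% of all genes. With quantile normalization the count of genes apart by oxygen was 6, beside 25.5% of all genes in either direction. Of 448 recalculated differences, 42 moved by more than the spot error, 12 of them only because the value table exchanges the names of arrays A and B, and no called one changed sign. Averaging probes took Kdm4a on array B to -0.20, against 0.34 with the brightest probe. It took Kdm5b on array B to 0.20 and Kdm2b in hypoxia to 0.85. Against control, Kdm5b came to 1.05 (triple stimuli) and 1.07 (triple stimuli with rapamycin). These means used levels below background as they stood. The Kdm4a mean held a probe below background on array B. That of Kdm5b held the AK163481 probe, above background in triple stimuli with rapamycin alone, at -5.48 in control and -3.18 in triple stimuli. The 3 Kdm5b probes above background on all 6 arrays stood 0.82, 0.70 and 0.37 above control in triple stimuli. Scaling by the median shifted differences by up to 0.16 and the median of all genes to -0.16 in hypoxia and -0.20 in triple stimuli with rapamycin against control, and left 6 of 7 called differences at 2-fold or more. Under the value table's label High glucose Kdm6b reads 0.08, from array B, which gave 0.09 with the scaling used above. Under its label High FFAs Kdm6b reads 0.76, from array A, which gave 0.77. Signal over background limits the dimmer probes of Kdm4a, Kdm5b and Kdm2b.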
